A study of Mus musculus with 59 samples.

Results

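RNA-seq counts from the cerebellum of 4 mice whose expanded Atxn1 allele carries substitutions that disrupt binding to CIC were compared with those of 4 WT mice. The 8 libraries were chosen by region and genotype from the labels, out of 59 libraries from 12 mice and 5 brain regions. The mutant mice were Atxn1 154Q[V591A;S602D]/2Q heterozygotes, named 154Q-AXH here (mice 154Q-AXH-207 and 154Q-AXH-209, then 154Q-AXH-217 with 154Q-AXH-218). The WT mice were WT-70 and WT-77, with low numbers, and the higher-numbered WT-220 with WT-221. All were 10 weeks old and on the C57BL/6 background, and each library is 1 mouse. The 154Q-AXH allele is a knock-in at the endogenous Atxn1 locus with 154 CAG-encoded glutamines and the substitutions V591A and S602D in the AXH domain (human numbering). It is expressed from the endogenous promoter in every cell that uses Atxn1, beside a 2Q allele, and the substitutions were made with CRISPR and backcrossed, so the line descends from edited founders. Another 4 animals, Atxn1 154Q/2Q heterozygotes named 154Q, carry the same repeat without the substitutions (numbered 154Q-69 and 154Q-71, then 154Q-75 with 154Q-76). They were fitted in the same model of 12 cerebellar libraries and are given beside the 154Q-AXH values.

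ATXN1 is a nuclear protein whose polyglutamine expansion causes spinocerebellar ataxia type 1 (SCA1), a disease in which Purkinje cells, the output neurons of the cerebellar cortex, lose dendrites, synaptic function and finally their number. Its AXH domain holds the transcriptional repressor CIC (Capicua), which represses ETS factors and feedback inhibitors of the MAPK pathway in many tissues. Other factors, among them RFX1 and ZKSCAN1, also bind ATXN1. The question of the comparison is which functions and which cell-type genes still differ from WT when binding of the expanded protein to CIC is disrupted.

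The libraries held 64.4 to 106.2 M read pairs counted on genes (median 85.4 M), between 75.33% and 77.74% of all pairs. Of 54232 mouse genes, 20874 had enough counts to be tested. Levels are given in CPM, the count scaled to a common library size with TMM factors, differences as log2 154Q-AXH minus WT with their standard error (SE), and a gene was called at an adjusted p under 0.05 (edgeR quasi-likelihood F test, Benjamini-Hochberg over all genes tested). The tissue label held in each library of both genotypes: Purkinje cell markers summed to at least 8873.6 CPM and granule cell markers to at least 8109.1 CPM, while 10 brainstem neuron markers summed to at most 14.8 CPM. The sum of 8 forebrain neuron markers lay between 116.4 and 192.1 CPM and was highest in WT-70 and WT-77. Several libraries stood apart within their genotype. The summed level of 12 choroid plexus and ependymal genes was 1519.5 CPM in WT-70, 3182.9 in WT-77, 87.2 in WT-220 and 51.1 in WT-221, and 53.7, 680.8, 1830.3 and 1589.4 CPM in the 154Q-AXH mice. Values of the 4 mice of a genotype are given in the order of their numbers throughout. WT mice with high choroid plexus genes were thus those of the lower mouse numbers, all 154Q-AXH mice have numbers above 200, and all 154Q mice have numbers below 100. Xist was at 1061.5 CPM in 154Q-AXH-217 and between 0.233 and 2.68 CPM in the other 7 libraries. The Y-linked gene Ddx3y was at 0.56 CPM in 154Q-AXH-217 and between 134.4 and 157.6 CPM in the other 7 (here without TMM factors). Beside several results, values are given with only the WT mice of 1 number series. Only WT has mice of both series, so number series as a covariate is estimated from the WT mice alone. For 154Q-AXH against WT it nearly repeats the comparison with WT-220 and WT-221 and is not a separate check.

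Against WT, 462 of the 20874 genes (2.21%) were called in 154Q-AXH cerebellum, 226 of them raised (1.08%) and 236 lowered (1.13%). At an unadjusted p under 0.05 there were 3151 genes. The differences were small: the median log2 difference was 0.27 over the raised genes and -0.34 over the lowered ones, and only 10 raised and 33 lowered genes were past 2-fold. In 219 of the raised and 232 of the lowered genes, the 4 154Q-AXH libraries did not overlap with the 4 WT libraries. Over all genes tested, 4.68% had every 154Q-AXH library above every WT library and 4.14% had every one below. The count of calls depended on the mice: it was 160, 168 and 211 without 154Q-AXH-207, without 154Q-AXH-209 or without 154Q-AXH-217, and 254 without WT-221, and 140 of the 462 genes were called in each of the 8 fits that left out 1 mouse. With the level of Ttr, a choroid plexus gene, as a covariate 460 of the 462 were still called, with the level of Xist 375, and with number series as a covariate 363.

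**Figure D1:**
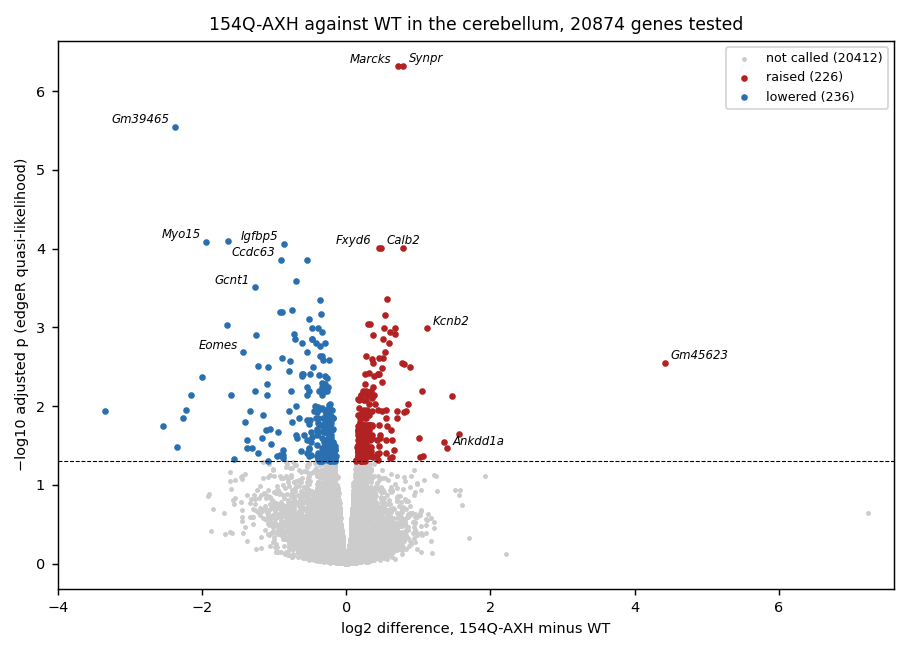
Each point is 1 of 20874 genes, with the log2 difference of 154Q-AXH and WT cerebellum (4 libraries each) on the x axis and the -log10 adjusted p of edgeR's quasi-likelihood test on the y axis; the dashed line marks 0.05. The 226 raised genes (red) and 236 lowered genes (blue) lie mostly within 1 log2 unit of 0, and Synpr and Marcks have the smallest p.

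Atxn1 itself (chr13:45549755-45965008, GRCm38) was measured first, although its count holds reads of both alleles and cannot check a genotype. It was at 44.3, 44.3, 59.6 and 51.6 CPM in WT, and at 58.7, 53.6, 52.0 and 50.3 CPM in 154Q-AXH. The groups overlapped, and the log2 difference was 0.10 (SE 0.093, adjusted p = 0.677). Cic, the partner that the substitutions uncouple, was at 200.2, 167.4, 199.2 and 205.6 CPM in WT and at 189.9, 192.6, 186.5 and 210.2 CPM in 154Q-AXH (log2 difference 0.01, SE 0.058, adjusted p = 0.954). None of the 12 genes for ATXN1 and its partner factors was called, with a median log2 difference of -0.02, beside -0.01 over all genes tested.

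The clearest raised genes encode proteins of presynaptic vesicles, membrane signalling and calcium binding. Synpr (chr14:13284780-13616340), which encodes the synaptic vesicle protein synaptoporin, was at 73.6, 74.9, 76.6 and 79.6 CPM in WT and at 135.6, 131.7, 124.0 and 135.9 CPM in 154Q-AXH. No library of one genotype came near the other, and the log2 difference was 0.79 (SE 0.043, adjusted p = 4.75e-07). Marcks (chr10:37133375-37138920), which encodes a membrane-bound protein kinase C substrate that binds actin, was at 182.5, 176.0, 164.2 and 169.8 CPM in WT and at 282.8, 283.2, 298.1 and 278.3 CPM in 154Q-AXH, a log2 difference of 0.72 (SE 0.041, adjusted p = 4.85e-07). Calb2 (chr8:110137502-110168210) encodes the calcium buffer calretinin and was at 428.9, 444.5, 418.0 and 410.5 CPM in WT against 604.0, 614.5, 562.4 and 597.0 CPM in 154Q-AXH. It rose by 0.48 (SE 0.046, adjusted p = 9.81e-05). These 3 genes kept their call in each fit without 1 mouse, with log2 differences between 0.78 and 0.82 for Synpr, 0.69 and 0.75 for Marcks, and 0.46 and 0.51 for Calb2.

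Kcnb2 (chr1:15287254-15723750), which encodes the delayed rectifier potassium channel subunit Kv2.2, was raised 2.17-fold. Its WT libraries held 7.02, 9.02, 9.58 and 8.5 CPM and its 154Q-AXH libraries 20.5, 19.6, 20 and 14.2 CPM, with 154Q-AXH-218 the lowest but still above every WT library (log2 difference 1.12, SE 0.141, adjusted p = 0.00103). Robo1, which encodes a receptor for the guidance cue Slit, was at 20.2, 20.8, 23.5 and 24.2 CPM in WT and at 32.1, 32.9, 34.8 and 31.6 CPM in 154Q-AXH (0.57, SE 0.063, adjusted p = 0.000442), with the groups well apart. Further raised genes with small p and non-overlapping groups were Fxyd6, a regulator of the sodium pump (0.45), Slc44a5, a choline transporter-like protein (0.68), Necab1, a neuronal calcium-binding protein whose exons overlap Gm11837 (0.67), Pla2g4e, of the cytosolic phospholipase A2 family (0.60), Zfp512b (0.33) and Wsb1, which holds a SOCS box (0.30). All 11 raised genes named here by p were called without any 1 of the 8 mice.

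Among the lowered genes, the groups of Igfbp5 were far apart. Igfbp5 (chr1:72857932-72874884), which encodes a secreted binding protein of insulin-like growth factors, was at 246.6, 206.6, 273.8 and 263.4 CPM in WT, at 139.8, 140.0, 130.4 and 134.0 CPM in 154Q-AXH, and at 95.5, 113.6, 115.1 and 101.2 CPM in 154Q. The 3 genotypes did not overlap, and the log2 difference of 154Q-AXH and WT was -0.86 (SE 0.079, adjusted p = 8.75e-05). It was the only called gene among 20 genes of the IGF and VEGF growth factors, whose median was -0.02. Myo15 (chr11:60469339-60528369), an unconventional myosin best known from hair cells, had the largest fall of the 11 lowered genes that are named by p. It held 3.52, 6.3, 5.79 and 5.24 CPM in WT and 1.3, 1.45, 1.37 and 1.35 CPM in 154Q-AXH (-1.94, SE 0.174, adjusted p = 8.26e-05).

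Several lowered genes are better known from other tissues. Mybpc3, the cardiac myosin-binding protein C, was at 47.6, 52.4, 48.6 and 42.4 CPM in WT and at 29.5, 29.2, 26.1 and 29.2 CPM in 154Q-AXH (-0.75, SE 0.086, adjusted p = 0.000601). Gcnt1, an enzyme of O-glycan branching, was at 12.2, 12.3, 17.9 and 18.4 CPM in WT and at 6.37, 6.14, 6.55 and 6.27 CPM in 154Q-AXH (-1.26, SE 0.135, adjusted p = 0.000311). Here the WT mice fell into a lower and a higher pair, and both pairs lay above every 154Q-AXH library. Rasal1, which promotes GTP hydrolysis by Ras and has a role in neurite growth, fell by 0.92 (SE 0.107), Il20rb, a subunit of interleukin receptors, by 0.89 (SE 0.104), and Ccdc63, known from sperm flagella, by 0.91 (SE 0.09). The remaining 4 of the 11 were Stap2, an adaptor protein (-0.52), Plcb3, a phospholipase C (-0.39), Atl2, an ER-shaping GTPase (-0.36), and Cep76, a centriolar protein (-0.35). None of the 11 lost its call when 1 mouse was left out.

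**Figure D2:**
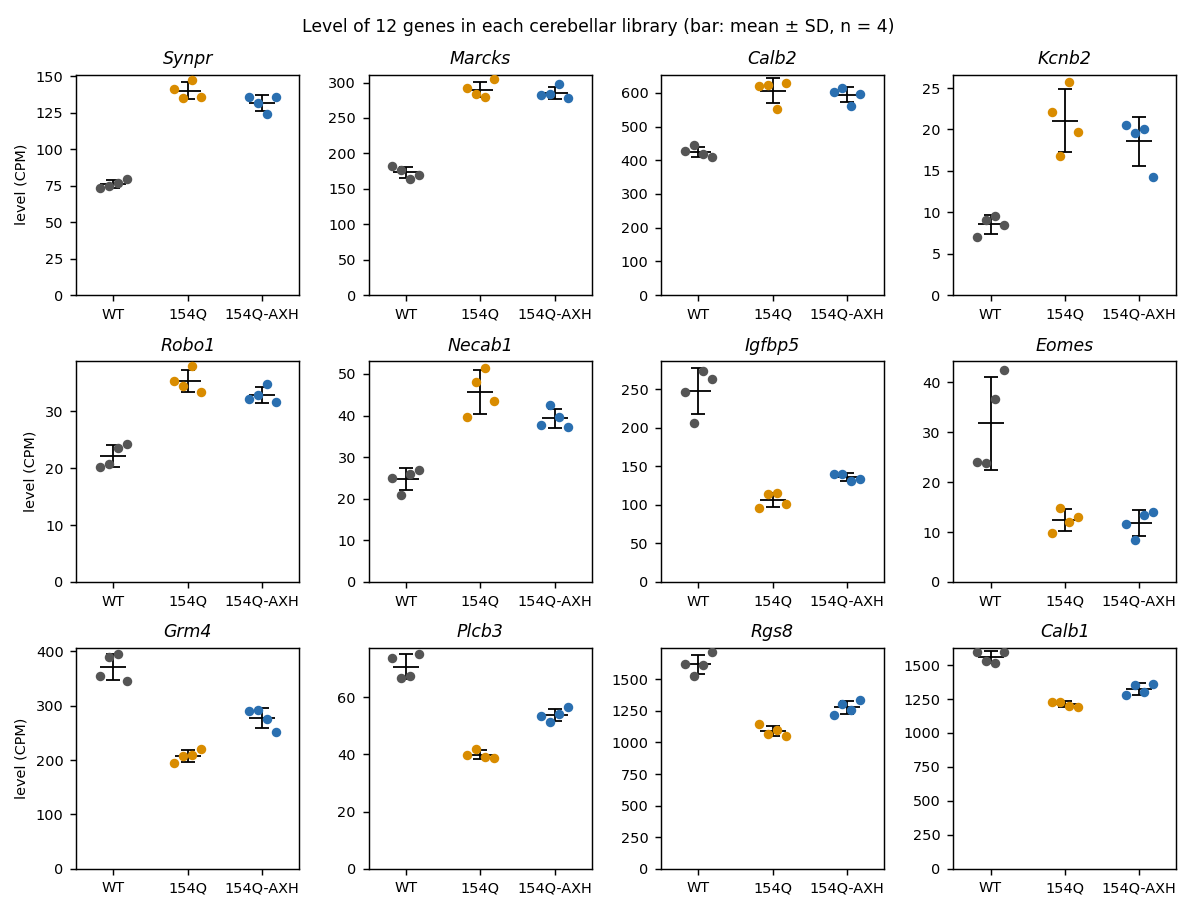
Level in CPM of 12 genes in each of 12 cerebellar libraries, with the mean ± SD of 4 mice per genotype. In Synpr, Marcks, Calb2, Kcnb2, Robo1 and Necab1 every 154Q-AXH library (blue) lies above every WT library (grey), and in Igfbp5, Eomes, Grm4, Plcb3, Rgs8 and Calb1 every one lies below.

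Genes of Purkinje cells were lower together. Of 13 marker genes, all of which were tested, 4 were lowered, none was raised and all 13 had a log2 difference below 0, with a median of -0.25 beside -0.01 over all genes tested. Over all genes tested, 1.13% were lowered, 1.08% were raised, and 10927 of 20874 lay below 0. The summed level of the 13 genes was 11236.9, 10364.1, 10598.5 and 11562.8 CPM in WT and 8873.6, 9426.5, 9250.8 and 9608.0 CPM in 154Q-AXH, so that every 154Q-AXH library was below every WT library. Summed levels of 2 other cell type lists were separated in the same direction, Bergmann glia and astrocytes (4572.2 to 4887.8 CPM in WT and 4334.0 to 4450.5 CPM in 154Q-AXH, a ratio of means of 0.93, beside 0.85 for Purkinje cells) and blood (122.4 to 167.7 CPM in WT and 67.2 to 116.8 CPM in 154Q-AXH, a ratio of 0.71). Their part in the Purkinje cell result was not tested. In bulk tissue, fewer cells of a type and less RNA per cell cannot be told apart. The same list in 154Q mice, against the same 4 WT libraries, had 10 lowered genes of 13 and a median of -0.39 (over all genes tested, 5.22% were called in 154Q, 2.1% raised and 3.12% lowered), with sums between 8105.1 and 8718.2 CPM.

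Rgs8, Car8 and Calb1 were among the lowered Purkinje cell genes, and each serves calcium or G protein signalling. Rgs8 (chr1:153653025-153700323), a regulator of G protein signalling, was at 1621.9, 1523.7, 1613.7 and 1712.7 CPM in WT and at 1218.2, 1303.6, 1255.3 and 1336.5 CPM in 154Q-AXH (-0.34, SE 0.044, adjusted p = 0.00113). Car8 (chr4:8143362-8239041), which inhibits binding of inositol trisphosphate to its receptor, was at 2410.9, 2307.8, 2332.0 and 2495.9 CPM in WT and at 1909.3, 2075.1, 2028.7 and 2037.0 CPM in 154Q-AXH (-0.25, SE 0.04, adjusted p = 0.00574). Calb1 (chr4:15881264-15908064), the calcium buffer calbindin, was at 1596.4, 1531.4, 1511.7 and 1596.6 CPM in WT and at 1276.6, 1356.7, 1303.1 and 1359.3 CPM in 154Q-AXH (-0.24, SE 0.034, adjusted p = 0.0026). The lowest WT level of each gene exceeded the highest 154Q-AXH level, and all 3 were called without any 1 mouse.

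The other 9 Purkinje cell genes did not pass the test. Itpr1, the inositol trisphosphate receptor, had -0.21 (adjusted p = 0.0835), Ppp1r17, a protein phosphatase inhibitor, -0.17 (adjusted p = 0.0607), and Homer3, a postsynaptic scaffold, -0.32 (adjusted p = 0.0929). Pcp2 was at 154.9, 90.3, 79.4 and 74.9 CPM in WT and at 71.6, 75.7, 80.7 and 97.8 CPM in 154Q-AXH, and Gng13 at 24.7, 13, 5.63 and 5.63 CPM in WT and 8.61, 9.02, 8.52 and 12.2 CPM in 154Q-AXH. In both genes WT-70 stood above all other libraries. The number of lowered genes was 8 with DESeq2, 6 with only WT-70 and WT-77 as WT, 8 with only WT-220 and WT-221 (where Gng13 was raised), and 4 or 5 in the fits without 1 mouse.

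**Figure D3:**
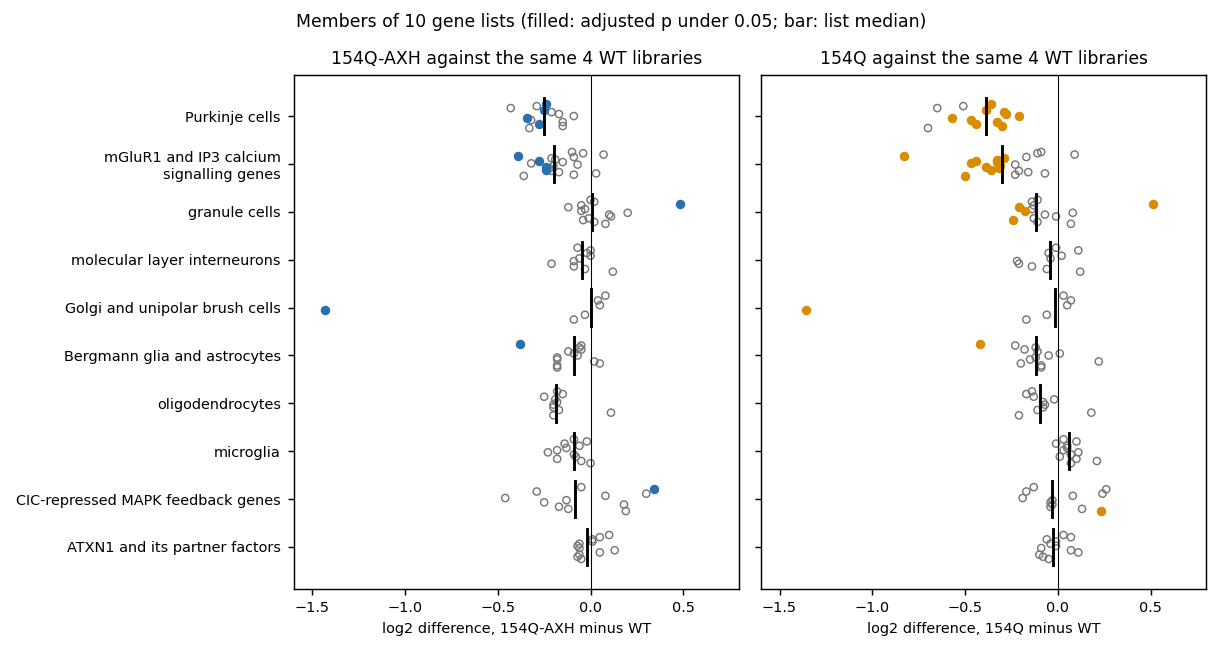
Each point is a tested gene of 1 of 10 lists, by its log2 difference against the same 4 WT libraries, for 154Q-AXH (left) and 154Q (right); filled points have an adjusted p under 0.05 and the black bar is the list's median. The Purkinje cell genes and the mGluR1 and inositol trisphosphate genes lie mostly to the left of 0 in both panels, with medians of -0.25 and -0.19 in 154Q-AXH, and the other lists have at most 1 called gene in 154Q-AXH.

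The pathway from the metabotropic glutamate receptor mGluR1 through phospholipase C to calcium stores, which carries slow parallel fibre signals in Purkinje cells, had 4 lowered genes among 20 tested, none raised, 18 below 0 and a median of -0.19. The share called was 20%, beside 2.21% over all genes tested (1.13% lowered). The list shares members with the Purkinje cell list, Calb1 (given above) among its lowered genes, so it is not a separate result. Plcb3 (chr19:6952325-6976470), a phospholipase C beta, was at 73.5, 66.6, 67.3 and 75.2 CPM in WT, at 53.3, 51.2, 54.2 and 56.5 CPM in 154Q-AXH and at 39.6, 42.0, 39.0 and 38.7 CPM in 154Q. Its 154Q-AXH level lay between those of WT (-0.39, SE 0.049, adjusted p = 0.00103) and 154Q (154Q-AXH minus 154Q 0.43, SE 0.05, adjusted p = 0.00473), with no overlap. Atp2a3, the calcium pump SERCA3, was at 290.8, 266.0, 269.0 and 287.4 CPM in WT and at between 226.7 and 250 CPM in 154Q-AXH (-0.24, SE 0.043, adjusted p = 0.0105). Without 154Q-AXH-207 or without 154Q-AXH-209 it was not called, with an adjusted p of at most 0.0536. With DESeq2 10 of the 20 genes were lowered, with only WT-220 and WT-221 as WT 11, and with only WT-70 and WT-77 6. In 154Q mice, 11 of the 20 genes were lowered and the median was -0.30. The list was not lowered more in the cerebellum than in the other 2 regions compared. Its median was 0.08 for cerebellum minus cortex (13 above 0, 7 below) and 0.07 for cerebellum minus hippocampus (14 above 0, 6 below).

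Markers of the other cerebellar cells gave 1 called gene or none per list. Among 14 granule cell genes only Calb2 was raised, none was lowered, and the median was 0.01, while 154Q mice had 1 raised and 3 lowered genes of this list and a median of -0.12. The summed granule cell level was 8109.1 to 9228.3 CPM in WT and 8464.0 to 8890.3 CPM in 154Q-AXH. Of 6 genes of Golgi and unipolar brush cells, Eomes alone was lowered. This T-box gene (chr9:118478212-118486132), which marks unipolar brush cells, was at 24.1, 23.9, 36.6 and 42.5 CPM in WT, at 11.6, 8.3, 13.5 and 14.1 CPM in 154Q-AXH and at 9.72, 14.9, 12 and 13 CPM in 154Q. Both mutant genotypes lay below every WT library (154Q-AXH minus WT -1.43, SE 0.2, adjusted p = 0.00207), although the WT libraries differed among themselves by number series. The other 5 genes of the list were not called, and its median was 0.00. Of 13 Bergmann glia and astrocyte genes, Gdf10, a secreted factor of Bergmann glia, was lowered. It was at 182.1, 183.2, 157.5 and 165.7 CPM in WT and at 130.9, 125.2, 128.1 and 145.8 CPM in 154Q-AXH (-0.38, SE 0.063, adjusted p = 0.00646), and the list's median was -0.09.

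No gene was called among 10 molecular layer interneuron genes (median -0.05), 6 oligodendrocyte precursor genes (-0.08), 12 microglial genes (-0.09), 10 endothelial and pericyte genes (-0.01), 12 choroid plexus and ependymal genes (-0.26), 8 meningeal genes (-0.13) or 5 blood genes (-0.51). Of the blood genes, which mark red blood cells, all 5 were below 0, and 3 were lowered with DESeq2 or with only WT-70 and WT-77 as WT, 2 with the Ttr level as a covariate and none with only WT-220 and WT-221. Of 8 forebrain neuron genes 7 were tested and of 10 brainstem neuron genes 3, again without a call. The 10 oligodendrocyte genes had a median of -0.19 without a called gene. Their sum was 7812.1 and 7916.0 CPM in WT-70 and WT-77, 6659.0 and 6911.0 CPM in WT-220 and WT-221, and 6783.6, 6957.9, 6486.7 and 5623.2 CPM in 154Q-AXH. With only WT-70 and WT-77 as WT, 5 of the 10 were lowered (median -0.32), and with only WT-220 and WT-221 none was (median -0.05), so this list followed the choice of WT mice.

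**Figure D4:**
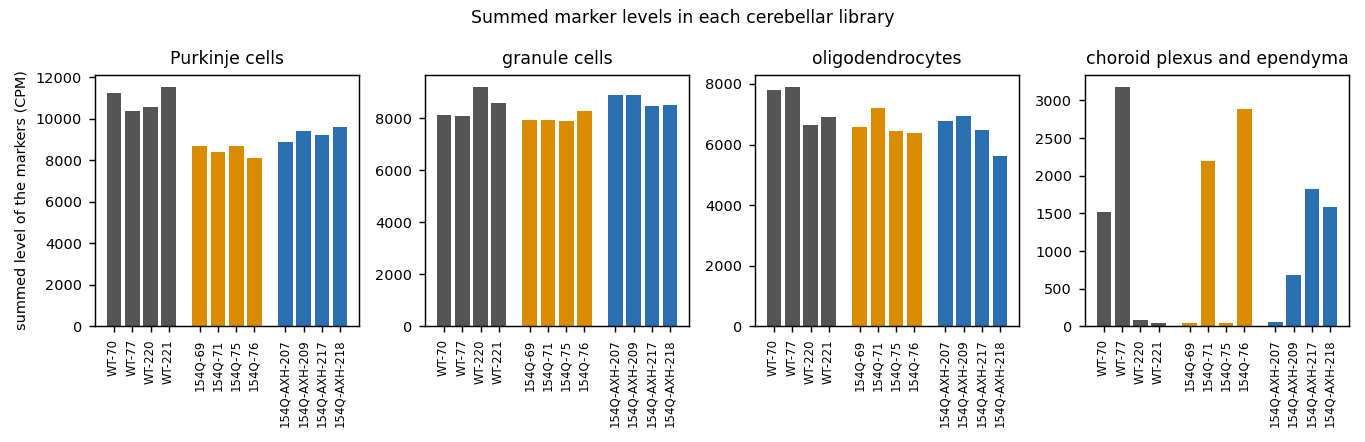
Summed CPM of the marker genes of 4 cell types in each of 12 cerebellar libraries. The Purkinje cell sum is lower in every 154Q-AXH library (8873.6 to 9608.0 CPM) than in every WT library (10364.1 to 11562.8 CPM), the granule cell sums overlap, oligodendrocyte sums are highest in WT-70 and WT-77, and choroid plexus sums vary within each genotype, from 51.1 to 3182.9 CPM in WT.

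Targets of CIC were examined next. Of 12 genes that CIC is known to repress in the MAPK pathway, 1 was raised and none lowered, with a median of -0.09. The raised gene was Etv4 (chr11:101769742-101785371), an ETS transcription factor. It was at 17.1, 13.7, 16.8 and 16.1 CPM in WT, at 18.6, 20.8, 19.5 and 21.8 CPM in 154Q-AXH and at 20.6, 18.4, 18.4 and 18.8 CPM in 154Q. Its 154Q-AXH libraries were above every WT library (0.34, SE 0.073, adjusted p = 0.026), but it was called in only 4 of the 8 fits without 1 mouse, not without WT-221 or any 154Q-AXH mouse other than 154Q-AXH-207 (adjusted p up to 0.108). The list turned with the WT mice used: with WT-220 and WT-221 alone it had 2 raised and 4 lowered genes and a median of -0.18, with WT-70 and WT-77 alone 1 raised and none lowered and a median of 0.10.

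The study names 3 genes as CIC targets, 3 as RFX1 targets and 3 as ZKSCAN1 targets. The study picked them in part by their calls in these same samples, so their directions here are not independent evidence. It also required a peak of only 1 of the factors and expression in human iPSC-derived neurons, and it showed genes whose change was reproduced there. None of the CIC targets was called in 154Q-AXH against all 4 WT mice, but this depended on the WT mice, as given below. The deubiquitinase gene Usp28 was at 59.9, 68.9, 81.3 and 76.1 CPM in WT and at 63.9, 66.7, 62.2 and 63.8 CPM in 154Q-AXH (-0.16, adjusted p = 0.344), and Dpf1, a neuronal subunit of BAF chromatin remodellers, at 18.8, 19.6, 19.3 and 19.5 CPM against 18.5, 19.1, 16.5 and 20.9 CPM (-0.04, adjusted p = 0.836). Svep1, an extracellular matrix protein, was at 56.8, 41.7, 78.3 and 65.7 CPM in WT and at 50.1, 51.1, 51.0 and 53.2 CPM in 154Q-AXH (-0.24, adjusted p = 0.419). The groups of all 3 overlapped. With only WT-220 and WT-221 as WT, Usp28 (-0.29, adjusted p = 0.00748) and Svep1 (-0.49, adjusted p = 0.00136) were lowered. Number series as a covariate, which nearly repeats that comparison, gave adjusted p = 0.0143 and 0.00979. Svep1 was also lowered without WT-77 (adjusted p = 0.0281). With only WT-70 and WT-77 none of the 3 was, and their median was -0.01. In 154Q mice the 3 genes were lowered (-0.34, -0.26 and -0.71 with adjusted p = 0.0182, 0.0344 and 0.00513), but 154Q-AXH and 154Q did not differ in a test of the difference itself (adjusted p = 0.613, 0.403 and 0.375).

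Among the RFX1 targets, Chn2, a Rac GTPase-activating protein that binds diacylglycerol, was at 597.8, 559.3, 630.8 and 560.8 CPM in WT and at 515.3, 530.8, 500.6 and 492.7 CPM in 154Q-AXH (-0.20, SE 0.041, adjusted p = 0.0202). It was lost without any 154Q-AXH mouse other than 154Q-AXH-209 (adjusted p up to 0.0719). Cnih3, an AMPA receptor auxiliary protein, had 0.24 (adjusted p = 0.737). Of the ZKSCAN1 targets, Ankdd1a rose from 0.202, 0.392, 0.201 and 0.438 CPM in WT to 0.927, 0.713, 0.934 and 0.717 CPM in 154Q-AXH (1.40, SE 0.318, adjusted p = 0.0345), a low level at which it was called in 2 of the 8 fits without 1 mouse (adjusted p up to 0.103). Ankdd1a also shares exon sequence with Spg21. Ebf4 had 0.24 (adjusted p = 0.105) and Tle6 -0.41 (adjusted p = 0.113).

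Promoter sequences of the called genes were searched for the CIC octamer, the letters TGAATGAA or TGAATGGA on either strand. Windows of 300 bases around each RefSeq start site (GRCm38.p6) were available for 165 of the raised and 166 of the lowered genes. The octamer was in 4 windows of raised genes (1.82%), 5 windows of lowered genes (2.26%) and 1.68% of all 17134 windows of tested genes. The letters GTTGCCA, which form part of the X-box that RFX factors bind, were in 4.55% of the windows of raised genes, 3.62% of those of lowered genes and 4.02% of all windows. The shares beside called genes were close to those over all windows, and a match describes letters and not a bound site. Of the 9 windows with an octamer, 3 are shown, chosen after their values were seen, from 250 bases before to 30 bases after the start, 5′ to 3′ on the strand of the gene, with the octamer in capitals.
Ica1 (raised, chr6:8778455-8778734, minus strand): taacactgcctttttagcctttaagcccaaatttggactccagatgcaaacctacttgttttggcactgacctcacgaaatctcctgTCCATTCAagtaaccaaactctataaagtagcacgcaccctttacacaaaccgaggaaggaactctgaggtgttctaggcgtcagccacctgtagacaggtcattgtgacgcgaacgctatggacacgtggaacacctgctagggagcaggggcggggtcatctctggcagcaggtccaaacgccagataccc
Kcnip1 (lowered, chr11:33843657-33843936, minus strand): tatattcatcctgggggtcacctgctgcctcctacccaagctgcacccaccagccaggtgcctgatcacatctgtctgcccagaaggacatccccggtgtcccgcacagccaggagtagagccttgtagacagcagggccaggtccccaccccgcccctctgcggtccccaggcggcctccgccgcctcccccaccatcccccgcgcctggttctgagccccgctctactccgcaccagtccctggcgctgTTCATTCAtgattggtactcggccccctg
Mthfd2 (lowered, chr6:83317575-83317854, minus strand): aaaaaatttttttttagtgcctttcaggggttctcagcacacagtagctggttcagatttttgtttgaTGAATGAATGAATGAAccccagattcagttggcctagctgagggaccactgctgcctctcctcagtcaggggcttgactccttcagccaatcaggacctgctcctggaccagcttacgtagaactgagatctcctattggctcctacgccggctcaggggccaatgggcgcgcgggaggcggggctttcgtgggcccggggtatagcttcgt
In Ica1 the octamer lies 163 bases before the start site, in Kcnip1 it begins 1 base after it, and in Mthfd2 a repeat holds 3 overlapping octamers, the first 182 bases before it. Ica1, which encodes a protein of secretory vesicles, was at 34.1, 35.9, 40.7 and 38.6 CPM in WT and at 44.9, 47.1, 41.2 and 46.5 CPM in 154Q-AXH (0.27, SE 0.059, adjusted p = 0.0317). Mthfd2, an enzyme of mitochondrial folate metabolism, was at 16.7, 17.7, 16.4 and 16.8 CPM in WT and at 12.7, 13, 13.3 and 15.6 CPM in 154Q-AXH (-0.31, SE 0.068, adjusted p = 0.0283).

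Lists of neuronal function were examined in turn. Of 99 potassium channel genes 87 were tested, 1 was raised (Kcnb2) and 6 were lowered (8.05% called, beside 2.21% over all genes tested), with a median of -0.04. Kcnh3, an ether-à-go-go type subunit, fell from 1.54, 2.44, 2.42 and 1.51 CPM to 0.981, 0.941, 0.706 and 0.68 CPM (-1.27, SE 0.211, adjusted p = 0.00646). Kcnh3 and Kcnb2 were called without any 1 mouse. Also lowered were Kcnip4 (-0.21) and Kcnip1 (-0.22), which bind Kv4 channels, the modulatory subunit gene Kcng4 (-0.28) and the BK channel gene Kcnma1 (-0.26). Each of these 4 lost its call without at least 1 mouse, and the list had 2 lowered genes without 154Q-AXH-207 and 3 without WT-221, 154Q-AXH-209 or 154Q-AXH-217. In 154Q mice 2 potassium channel genes were raised and 13 lowered (17.2%, beside 5.22% over all genes tested).

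Other channels and receptors had single calls. Of 26 calcium channel genes 24 were tested. Cacna1s, the channel subunit of skeletal muscle, fell from 1.2, 1.42, 1.11 and 0.999 CPM to 0.49, 0.513, 0.729 and 0.486 CPM (-1.10, SE 0.176, adjusted p = 0.00517), and Cacna2d1, an auxiliary subunit, rose by 0.35 (SE 0.078, adjusted p = 0.0334) but was lost without any of 6 mice. Of 25 glutamate receptor genes tested, Grm4 (chr17:27422387-27521403), the presynaptic mGluR4 of parallel fibres, was lowered. It was at 355.2, 389.0, 394.9 and 345.8 CPM in WT, at 290.8, 291.8, 275.8 and 252.3 CPM in 154Q-AXH and at 194.8 to 220.7 CPM in the 4 154Q mice. The 3 genotypes were separate, with 154Q-AXH minus WT at -0.42 (SE 0.057, adjusted p = 0.00156) and 154Q-AXH minus 154Q at 0.42 (SE 0.057, adjusted p = 0.0236). The kainate receptor gene Grik5 rose from 65.0, 64.0, 62.2 and 62.3 CPM to 72.4, 71.8, 72.0 and 76.2 CPM (0.21, SE 0.038, adjusted p = 0.0125). Among 17 sodium and HCN channel genes and 33 genes for GABA and glycine receptors and transporters, none was called.

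A few genes of synapse assembly and axon guidance were called, most of them raised and by small amounts. Over all genes tested, 2.21% were called, 1.08% raised and 1.13% lowered. Of 45 synaptic adhesion and organizer genes tested, 4 were raised and none lowered (8.89% called), with a median of 0.03. These were Slitrk2 (0.36, SE 0.066), Nlgn1, which encodes neuroligin 1 (0.29, SE 0.061), Lrfn1 (0.27, SE 0.054) and Lrrc4c (0.25, SE 0.058), with adjusted p = 0.0115, 0.0252, 0.0172 and 0.0376. Slitrk2, a postsynaptic leucine-rich repeat protein, was at 39.9, 33.2, 43.1 and 42.5 CPM in WT and at 51.9, 52.1, 49.2 and 50.6 CPM in 154Q-AXH, without overlap, whereas the Lrrc4c groups overlapped. None of the 4 was called without 154Q-AXH-207 or without 154Q-AXH-209. Of 40 cadherins tested, Cdh8 (0.36) and Cdh15 (0.31) were raised (5% called), with a list median of 0.04. Neither was called without WT-77, WT-221 or any 154Q-AXH mouse other than 154Q-AXH-218. Of 68 axon guidance genes, Robo1, Ephb1 (0.19) and Sema3a (0.22) were raised and Sema7a (-0.25) was lowered (5.88% called), with a list median of 0.04. Apart from Robo1, each lost its call without 5 or more of the 8 mice in turn.

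In the remaining signalling lists, Rgs17 was raised beside the lowered Rgs8 among 18 RGS genes tested. It was at 49.9, 48.8, 56.3 and 57.8 CPM in WT and at 76.5, 76.8, 74.0 and 61.3 CPM in 154Q-AXH (0.44, SE 0.08, adjusted p = 0.0113), and it was not called without 154Q-AXH-207 or 154Q-AXH-209. Of 25 neuropeptide genes tested, Crhr1 (chr11:104132855-104175523), the receptor of corticotropin-releasing hormone that climbing fibres release, fell from 75.6, 68.6, 87.4 and 90.1 CPM to 51.9, 48.2, 48.2 and 61.8 CPM (-0.62, SE 0.096, adjusted p = 0.00418), while the PACAP receptor gene Adcyap1r1 rose by 0.26 (SE 0.048, adjusted p = 0.0129, not called without any 154Q-AXH mouse other than 154Q-AXH-218). Crhr1 was called without any 1 mouse. Of 18 immediate early genes tested, Fosl2 was lowered (-0.88, SE 0.202, adjusted p = 0.0364, lost without any of 5 mice).

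Genes of general cell functions had few calls against all 4 WT mice. No gene was called among 82 cytosolic ribosomal protein genes tested (median 0.02), 13 mitochondrially encoded genes (-0.01), 23 cholesterol synthesis genes (0.01), 19 circadian clock genes (-0.03), 18 interferon and antigen presentation genes (-0.00) or the 9 polyglutamine disease genes (-0.01). Of 80 oxidative phosphorylation genes tested, Cox6a2, the muscle-type subunit of cytochrome c oxidase, was lowered. It fell from 2.33, 2.19, 1.73 and 1.37 CPM to 0.874, 0.808, 1.0 and 0.875 CPM (-1.10, SE 0.187, adjusted p = 0.00721) and was called without any 1 mouse. Of 21 heat shock chaperone genes, Hspa1b was lowered (-0.51, SE 0.114, adjusted p = 0.0341), which held in 1 of the 8 fits without 1 mouse. Several of these counts turned with the WT mice used. With only WT-220 and WT-221 as WT, 36 oxidative phosphorylation genes were raised and 2 lowered (median 0.23), 18 ribosomal protein genes were raised (median 0.19), and 1 heat shock gene was raised and 6 lowered. With number series as a covariate, which nearly repeats that comparison, 25 oxidative phosphorylation and 6 ribosomal protein genes were raised. With only WT-70 and WT-77, no gene of either list was raised and the medians were -0.12 and -0.16.

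How far 154Q-AXH cerebellum differed from 154Q cerebellum was tested directly. Only 7 of 20874 genes (0.0335%) were called, 6 higher in 154Q-AXH (0.0287%) and 1 lower (0.00479%), with 1586 at an unadjusted p under 0.05 and 124 by DESeq2. Stap2, Plcb3, Grm4 and Plk5 were among the higher genes, and each was lowered against WT. Stap2 (chr17:55997077-56005584) was at 23.6, 24.3, 26.7 and 25.6 CPM in WT, 19.6, 17.3, 16 and 16.8 CPM in 154Q-AXH and 11.1, 11.5, 10.9 and 11.3 CPM in 154Q (154Q-AXH minus 154Q 0.64, SE 0.065, adjusted p = 0.0021). Plk5, a kinase-like gene expressed in brain, was at 70.7, 66.5, 71.7 and 67.7 CPM in WT, 56.2, 53.7, 43.4 and 55.6 CPM in 154Q-AXH and 31.7, 38, 31.6 and 38.4 CPM in 154Q. It lay below WT (-0.41, SE 0.083, adjusted p = 0.0206, not called without 154Q-AXH-209) and above 154Q (0.58, SE 0.084, adjusted p = 0.0274). A830018L16Rik moved the other way, at 10.7, 10.3, 11.1 and 11.7 CPM in WT, 15.8, 16.4, 17.2 and 14.3 CPM in 154Q-AXH and 21.7, 22.1, 21.9 and 20.3 CPM in 154Q. Triobp, an actin-binding protein, was at 34.8, 32.9, 35.7 and 33.9 CPM in WT, 36.1, 34.5, 34.0 and 35.6 CPM in 154Q-AXH and 28.1, 30.3, 25.4 and 26.6 CPM in 154Q. Among these 7 it alone was not called against WT (0.03, adjusted p = 0.863). All 154Q-AXH mice have numbers of the higher series and all 154Q mice of the lower. Genotype and series therefore cannot be told apart in this comparison. With the series as a covariate only Stap2 and A830018L16Rik of the 7 were still called, but that covariate is estimated from the WT mice alone. Leaving out 1 mouse gave between 2 and 6 called genes, of which Stap2 and Plcb3 were called each time, while Grm4 was lost without any of 6 mice. In these fits A830018L16Rik was called only without 154Q-AXH-217, and Triobp only without 154Q-71. Plk5 was called only without 154Q-71, 154Q-76 or 154Q-AXH-217.

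Whether the 154Q-AXH effect was particular to the cerebellum was tested as an interaction with the hippocampus and the cortex of the same mice, with 4 libraries of each genotype per region. The main fit treated the libraries of a mouse as independent. The effect differed between cerebellum and hippocampus for 116 of 21993 genes (0.527%, with 0.377% higher and 0.15% lower in the cerebellum), and for 175 genes with the mouse as a replicate block. Between cerebellum and cortex it differed for 445 of 20556 genes (2.16%), 1.64% higher and 0.521% lower in the cerebellum. The cortical library labelled WT-221 held 462.0 CPM of Xist and 0.881 CPM of the Y-linked gene Ddx3y, against 1.77 and 157.6 CPM in the cerebellar library of that mouse, so it goes against its label, and without it 314 genes differed. The cortical library labelled 154Q-AXH-207 has a file named for a 154Q mouse, so its genotype is uncertain, and without it 355 genes differed. Leaving out 1 mouse moved both counts: the hippocampal one was 18 without WT-220, 20 without WT-221, 58 without 154Q-AXH-207 and 30 without either 154Q-AXH-209 or 154Q-AXH-217, and the cortical one lay between 201 and 242 without WT-221 or any 154Q-AXH mouse other than 154Q-AXH-217. Of the genes called in the cerebellum, 14 of 226 raised and 14 of 236 lowered genes differed from the hippocampus, and 42 of 226 raised and 26 of the 230 lowered genes tested there differed from the cortex. For most called genes a difference between regions was not detected, which does not show that the effects were equal. Called and leading genes were selected on the same cerebellar libraries, which favours finding a difference from another region. Of the 116 and 445 genes, 11 and 144 were called in every fit that left out 1 mouse.

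Some of the leading genes were among those that differed. Kcnb2 had a log2 difference of 1.12 in the cerebellum, 0.15 in the hippocampus (mean 32.4 CPM in WT and 36.9 in 154Q-AXH) and -0.22 in the cortex (30.5 CPM in WT and 26.7 in 154Q-AXH). It differed from the cortex (1.34, SE 0.142, adjusted p = 5.72e-05) and from the hippocampus (0.97, SE 0.183, adjusted p = 0.0227, but 0.0586 with the replicate block). Synpr rose by 0.46 in the hippocampus and had -0.33 in the cortex (cerebellum minus cortex 1.13, SE 0.101, adjusted p = 1.14e-05). Marcks had 0.50 and 0.46 in these regions, and no difference between regions was detected for it. Myo15 had a mean of 0.359 CPM in WT and 0.365 CPM in 154Q-AXH hippocampus, and the difference between cerebellum and hippocampus was -1.94 (SE 0.365, adjusted p = 0.0227). Rasal1 and Gcnt1 were lowered more in the cerebellum than in either region, with cerebellum minus hippocampus at -0.73 and -1.13 and cerebellum minus cortex at -0.87 and -1.15.

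For a few genes the cerebellar difference was the smaller one. Plk5 fell by 1.47 in the hippocampus, from a mean of 25 to 9.32 CPM, and by 2.69 in the cortex, from 16.7 to 2.62 CPM, against -0.41 in the cerebellum (cerebellum minus cortex 2.29, SE 0.222, adjusted p = 2.03e-05). Rgs8 had -0.73 in the cortex (96.8 CPM in WT and 59.8 in 154Q-AXH), -0.33 in the hippocampus and -0.34 in the cerebellum (cerebellum minus cortex 0.38, SE 0.082, adjusted p = 0.016). Grm4 had -0.79 in the cortex and -0.40 in the hippocampus (cerebellum minus cortex 0.37, SE 0.09, adjusted p = 0.0346, but 0.0569 without the cortical library labelled WT-221 and 0.0839 without that labelled 154Q-AXH-207). The call of Rgs8 in this test held with the replicate block and without either library. The block pairs both libraries by labels that are in doubt, so it is a weak check for the cortex.

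**Figure D5:**
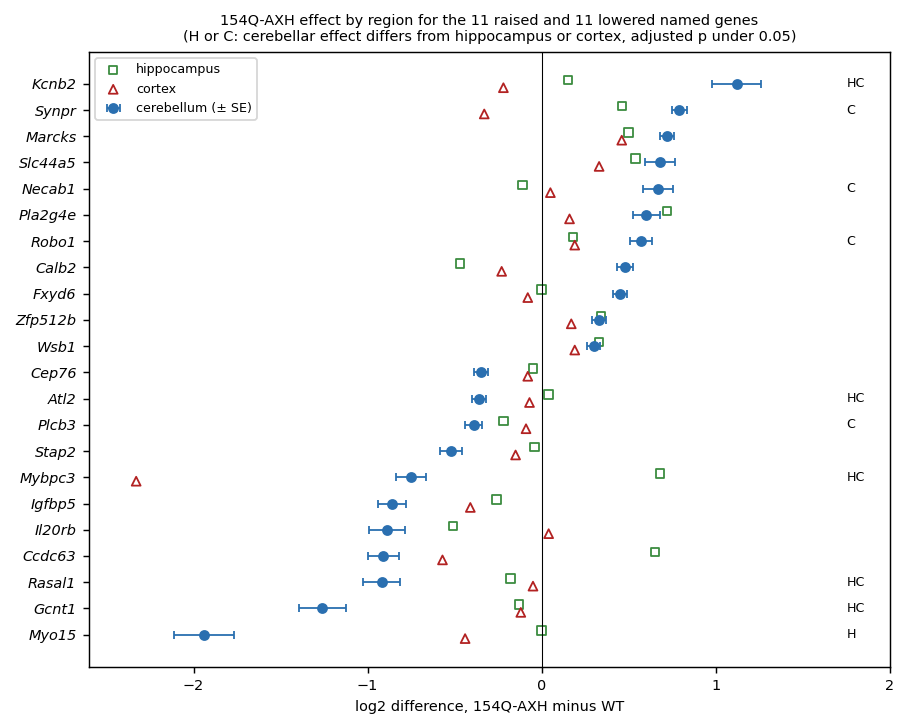
Log2 difference of 154Q-AXH and WT in the cerebellum (blue, ± SE, n = 4 per genotype), hippocampus (green squares) and cortex (red triangles) for the 11 raised and 11 lowered genes named by p. H or C marks genes whose cerebellar difference departs from the hippocampus or cortex at an adjusted p under 0.05, as Kcnb2 (1.12, 0.15 and -0.22) and Rasal1 (cerebellum minus cortex -0.87) show.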

How the data were processed

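RNA was extracted from dissected regions of each mouse, and paired-end reads were sequenced, trimmed with Trimmomatic 0.36 and aligned with STAR 2.7.2d (GRCm38.p6, GENCODE M18) by the authors. The deposited values are whole read-pair counts per gene without normalization, in an unstranded and 2 stranded columns. Of the stranded counts, 48.91% to 49.74% were on the first strand, so the unstranded counts were used, and reads of antisense or overlapping genes cannot be told apart. Summary lines and 1 line that names no mouse gene were left out, leaving 54232 genes. Pairs on no gene were 7.92% to 9.15%. Library totals cover counting error only.

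Genotype, region and mouse number were taken from the labels. Libraries of the cerebellum are separate mice, so p-values of comparisons within it measure the spread between mice. No pair of cerebellar libraries of the same genotype agreed within sampling noise by a chi-square test. Pairs of different genotypes were not compared. Genes were filtered with filterByExpr by genotype, scaled by TMM and fitted in 1 model of 12 cerebellar libraries with edgeR 4.0.16 in R 4.3.3 (glmQLFit, glmQLFTest, Benjamini-Hochberg over all genes tested, 0.05). The SE is the absolute log2 difference over the root of F. Regions were compared by the interaction of genotype and region over 16 libraries. Each mouse gave a library in both regions, and the main fit treated them as independent, with the mouse as a block as an alternative. WT and 154Q-AXH share no mouse number, so nothing pairs them within a region. Between regions, libraries with the same number come from the same mouse by the labels, and the correlation of their deviations from the group means was -0.38 to 0.61 with the hippocampus and -0.09 to 0.22 with the cortex. On simulated counts with cerebellar means and dispersions for 154Q-AXH against WT (20874 genes, 50 changed per fold), the fit called 44% at 1.25-fold, 78% at 1.5-fold, 94% at 2-fold and 100% at 3-fold. The changed genes were drawn from those with a mean count above 50, so these shares do not cover genes with fewer counts.

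The members and the 41 gene lists were chosen with earlier results of these data known. Named are the 12 raised and 12 lowered called genes with the lowest p whose groups do not overlap and whose symbol is not a model name, every called member of a list, Atxn1 and Cic, the 5 lowest p in each direction against 154Q, and the study's target genes. A few of these are not reported here, which leaves 66 named genes (11 raised and 11 lowered by p), while counts over lists and over all genes include them. Genes outside this rule are marked as picked with their values known. Positions are from GENCODE M21 (GRCm38) and promoters from RefSeq (GRCm38.p6), which matched 13474 genes tested. Alternatives were DESeq2 1.42.0, edgeR with the size factors of DESeq2, no filter on low counts, only the 2 genotypes compared, number series, Ttr or Xist as a covariate, WT mice of 1 series, counts of 1 strand, the replicate block, and leaving out each mouse. The fits with WT-70 and WT-77 alone and without the cortical library labelled WT-221 were added after seeing the data. For 2 cortical libraries, labelled 154Q-AXH-207 and 154Q-76, the file names give the other mouse. The labels were used, and the cortex was also compared without the former.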

Additional observations from a re-analysis of the deposited data

Results flagged for a closer look

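Single libraries stood apart from the other 3 of their group by Dixon's test at its 95% critical value in 7 of 160 groups tested, where chance flags about 1 group in 20. In 154Q-AXH-218, Kcnb2 was low at 14.2 CPM and Grik5 high at 76.2 CPM. In 154Q-AXH-217, Mybpc3 was low at 26.1 CPM and Cacna1s high at 0.729 CPM. In 154Q-AXH-209, Ccdc63 was low at 3.66 CPM and the summed level of the meningeal genes low at 86.9 CPM. In WT-77, Cic was low at 167.4 CPM.

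The 154Q-AXH effect differed between cerebellum and hippocampus by the interaction test for 116 genes. Among the named genes, cerebellum minus hippocampus was 0.97 for Kcnb2, 0.32 for Grik5 and 1.07 for Plk5, and -1.94 for Myo15, -1.13 for Gcnt1, -0.39 for Atl2, -1.42 for Mybpc3 and -0.73 for Rasal1. With the replicate block, Kcnb2 and Mybpc3 were not called (adjusted p = 0.0586 and 0.0688). Mybpc3 was at a mean of 0.261 CPM in WT and 0.433 CPM in 154Q-AXH hippocampus, so its hippocampal term rests on few reads.

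Against the cortex the effect differed for 445 genes. Cerebellum minus cortex was above 0 for Synpr (1.13), Robo1 (0.37), Kcnb2 (1.34), Necab1 (0.62), Mybpc3 (1.59), Rgs8 (0.38), Grik5 (0.34), Grm4 (0.37), Lrrc4c (0.37), Nlgn1 (0.33), Rgs17 (0.53), Plk5 (2.29) and A830018L16Rik (0.62). It was below 0 for Gcnt1 (-1.15), Atl2 (-0.29), Rasal1 (-0.87) and Plcb3 (-0.31). Of the genes above 0, Mybpc3, Rgs8, Grm4 and Plk5 were lowered in the cerebellum, so their fall was smaller there than in the cortex. With the replicate block, Nlgn1 and Plcb3 were not called (adjusted p = 0.0526 and 0.0786). Without the cortical library labelled WT-221, whose sex-linked genes go against its label, Robo1, Grm4, Lrrc4c, Nlgn1 and Plcb3 were not called (adjusted p = 0.066, 0.0569, 0.0664, 0.0588 and 0.0737). Without the cortical library labelled 154Q-AXH-207, whose file is named for a 154Q mouse, Robo1, Grm4, Lrrc4c and Plcb3 were not called (adjusted p = 0.0636, 0.0839, 0.0616 and 0.111), and Adcyap1r1 and Cdh8 were (0.40 and 0.49, adjusted p = 0.0283 and 0.0349).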

How the results depend on the processing

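Against WT, 462 genes were called in the main analysis, 1057 with DESeq2 (568 raised and 489 lowered), 241 with only the 2 genotypes fitted, 1475 with number series as a covariate, 1811 with only WT-220 and WT-221 as WT, and 160 to 556 without 1 mouse. Of the 462, 140 were called in each of the 8 fits without 1 mouse and 159 in each of the 10 other alternatives. Against 154Q, the 7 genes became 124 with DESeq2, 29 without a filter, 54 with only the 2 genotypes, 80 with number series, 18 with Ttr as a covariate and 2 to 6 without 1 mouse. The interaction with the hippocampus gave 116 genes, 175 with the replicate block (96 shared) and 18 to 132 without 1 mouse. The interaction with the cortex gave 445 genes, 445 with the replicate block (358 shared) and 201 to 470 without 1 mouse. The cortical block pairs the libraries labelled WT-221 and 154Q-AXH-207 by labels that are in doubt.

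Over the named genes and all alternatives, 1011 values kept direction and call, 160 lost a call, 9 gained one and 8 turned direction. None of the 8 belongs to a gene called in the main analysis. Atxn1 was at -0.05 with number series and -0.05 with only WT-220 and WT-221, and Cic at -0.06 and -0.05 under the same settings. Without 1 mouse, Cic lay between -0.05 and 0.04 and Dpf1 between -0.10 and 0.01. Svep1 was at 0.05 with only WT-70 and WT-77. The cause was not tested. At this depth, changes under 1.5-fold were called less often than larger ones in simulated data, so a gene that was not called may still differ.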

Other observations

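Several called genes with model names were outside the rule for named genes and were chosen after their values were seen. Gm39465, on chromosome 9, was at 9.58, 10.0, 11.8 and 11.6 CPM in WT, at 2.17, 2.14, 1.83 and 2.08 CPM in 154Q-AXH and at 0.66, 1.52, 0.643 and 0.862 CPM in 154Q. It had the smallest p of all lowered genes (log2 154Q-AXH minus WT -2.38, SE 0.159, adjusted p = 2.84e-06). 4930447F24Rik, also on chromosome 9, was at 8.59, 7.11, 8.99 and 8.66 CPM in WT and at 2.41, 2.64, 2.57 and 3.07 CPM in 154Q-AXH (-1.64, SE 0.144, adjusted p = 8.08e-05).

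Gm45623 (chr13:56752371-56753827, GRCm38), on the chromosome of Atxn1, had the largest rise of all called genes. It was at 0.327, 0.266, 0.313 and 0.479 CPM in WT and at 6.82, 7.79, 7.38 and 7.29 CPM in 154Q-AXH (4.42, SE 0.649, adjusted p = 0.00281). In 154Q it was at 5.9, 6.7 and 6.35 CPM in 154Q-69, 154Q-71 and 154Q-75 but at 0.268 CPM in 154Q-76, at the level of WT. This gene thus split the 154Q mice 3 to 1 and was high in all 4 154Q-AXH mice.

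Of 180 genes tested within 10 Mb of Atxn1, 4 were raised and 3 lowered in 154Q-AXH (3.89%), against 1.51% of 663 other genes on chromosome 13 and 2.2% of all other genes. Those with a gene name were Phactr1 (0.23, adjusted p = 0.0116), Kif13a (0.24, adjusted p = 0.0235), Grk6 (0.22, adjusted p = 0.0238) and Sfxn1 (0.17, adjusted p = 0.0202), raised, and Id4, an inhibitor of helix-loop-helix factors, lowered (-0.30, adjusted p = 0.00517). Id4 was at 166.5, 173.9, 148.6 and 161.4 CPM in WT and at 123.3, 134.4, 136.6 and 135.2 CPM in 154Q-AXH. Whether differences at linked loci have a part in these calls was not tested.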
